A study of Homo sapiens with 6 samples.

Results

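RNA G-quadruplex (rG4) stops in 5′ UTRs are nucleotides at which reverse transcriptase (RT) halted at the 3′ end of a G-rich stretch between the cap and the start codon. In total 403 such stops in 228 genes were found in mRNA of U2OS, a human osteosarcoma cell line. They were chosen from 2731338 transcript nucleotides with listed stops in the library of the rule, on transcripts past the coverage minimum. The RT-stop enrichment score (E) is the stop count of a nucleotide over the mean listed count per nucleotide of its transcript. A stop entered if it was at a G, had an E of at least 10 in 1 of the libraries without dimethyl sulfate (DMS) and had at least 2-fold the E of the other. The 45 nt ending at the stop also had to hold 4 runs of 2 or more G separated by loops of 1 to 9 nt. Loops could themselves hold G, so a long run could count as more than 1. A window could therefore hold as few as 3 separate runs. Both libraries also needed a transcript mean of 1 stop per nucleotide or more.

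The study made 1 library for each of 6 conditions from poly(A)-selected U2OS RNA, so that no difference between conditions has a replicate and no test was made. RNA without DMS was reverse transcribed in 150 mM Na+ or 150 mM K+ according to the sample labels. RNA folded and modified with DMS in vitro was kept in 150 mM K+ or 150 mM Li+, and RNA modified in vivo came from unstressed cells or from cells starved for 2 h in HBSS, a balanced salt solution, both given 8% DMS for 5 min. These last 4 libraries were reverse transcribed in 150 mM K+. For the pair without DMS, the deposited file names give the cations the other way around from the labels, and the methods name Li+ where the labels and the study's results name Na+. The library that selects the stops is called here the library labelled Na+, and its partner the library labelled K+. Which of them was reverse transcribed in K+ cannot be told apart from the labels and names alone.

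An rG4 is a stack of planar quartets of G held by a monovalent cation, most stably K+ and poorly Li+. RT halts when it meets a folded rG4 from the 3′ side. DMS methylates G that is not held in a quartet, and a methylated G-rich stretch no longer folds when RT passes. Stops also remain in part after DMS on unfolded RNA, so the stop in Li+ serves as the reference for the unfolded state. In 5′ UTRs, rG4s are known as obstacles to the scanning ribosome, and helicases such as eIF4A and DHX36 unwind G-rich structure there.

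The 8 strongest stops, 1 per gene, ended in the following stretches, shown because they hold the runs of G that define the group. Each is written 5′ to 3′ in mRNA sense as DNA letters and ends at the stop. Capitals mark runs of at least 2 G. Coordinates and sequences are from GRCh37 with the GENCODE annotation.
AGPAT1 (chr6:32143806-32143835, minus strand): gagagacagcagaaaGGGaGGGaGGGaGGG
RPAP3 (chr12:48099750-48099779, minus strand): gcGGGGctgacGGGGtGGcagtgcGGcGGG
PSMD4 (chr1:151227225-151227254, plus strand): cGGagacccGGtcGGGaGGGaGGaaGGtGG
BMP4 (chr14:54423507-54423536, minus strand): gcgagaaGGcagaGGaGGaGGGaGGGaGGG
KIFC1 (chr6:33359600-33359629, plus strand): GGaattcaaaagtGGcGGGtgtGGcgcGGG
NAA50 (chr3:113465047-113465076, minus strand): cGGGtctGGctGGcGGcagcGGcGGGaGGG
U2AF1 (chr21:44527607-44527636, minus strand): gtgtcgacGGcagcGGcGGcGGcGGGtGGG
PPIG (chr2:170440888-170440917, plus strand): gagttgtGGGGGaGGGaGGcGGttagcGGG
Of these, AGPAT1 alone had 4 runs of 3 or more G joined by loops of at most 7 nt, each loop a single A. The other 7 stretches relied on at least 1 run of only 2 G. All 8 stops lie in exon 1 of their gene.

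The listed stops summed to between 12999691 and 35371061 in the 6 libraries, with the fewest in unstressed cells. Stops at A or C, where DMS blocks RT directly, made up 51.1% and 52.4% of listed stops without DMS, 83.9% and 83.2% in vitro (K+ and Li+) and 88.4% and 78.2% in vivo (unstressed and starved). Of mesenchymal genes, VIM had between 21.4 and 58.9 listed stops per nucleotide, LGALS1 31.4 to 65.7, SPARC 2.27 to 9.62, S100A6 3.92 to 6.51, COL1A1 0.512 to 3.96, CD44 0.473 to 1.27 and RUNX2, an osteoblast transcription factor, 0.0141 to 0.0754. Of markers of other cell types, EPCAM reached at most 0.04 stops per nucleotide, HBB at most 0.870 and TUBB3 at most 1.31, KRT8 and KRT18 were present at 1.30 to 4.38 and 0.733 to 3.57, and CDH1, KRT19, PTPRC, ALB and MAP2 were not among the matched transcripts.

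Of 30673 G with listed stops in 5′ UTRs, 427 (1.39%) had the strength and the difference between the libraries, against 0.178% of listed nucleotides of any base and region. Of these 427, 403 (94.4%) had the G-run motif before the stop. The corresponding numbers were 738 of 924 (79.9%) in coding sequence and 1826 of 2147 (85.0%) in 3′ UTRs. The same motif preceded 32.2% of all 172598 G in the annotated 5′ UTRs and 47.9% of the 24078 G in the 5′ UTRs that hold a stop. The motif was far more frequent than the stops. Of 16064 runs of G in 5′ UTRs that end a motif, 252 (1.57%) were a stop of the group at their last G.

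The values that chose the stops are given as a description. E in the library labelled Na+ was at least 10.0 and at most 294, with a median of 16.8 and quartiles of 12.4 and 28.2, from stop counts of 11 to 1018 (median 42). In the library labelled K+, 264 of the 403 stops were not listed, meaning fewer than 3 counts, and the highest E was 10.1. Where a stop was listed in both, E was 2.04- to 171-fold higher in the library labelled Na+ (median 12.6, n = 139). Just inside the limit of E were TCEA1 (E of 10.0, 49 counts) and ERF (10.0, 27 counts), and just outside were YARS1 (9.97, 24 counts) and PPP2CB (9.90, 35 counts). Just inside the 2-fold limit were PHPT1 (2.04-fold) and NME1-NME2 (2.23-fold), and just outside were MAP2K1 (1.96-fold) and EIF2S1 (1.72-fold). Counts of this size mean that members near a limit are separated from non-members by less than their counting error.

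Stops often came in neighbouring pairs, which share one G-rich stretch and are not independent of each other. Merged within 30 nt, the 403 stops formed 245 regions, 145 of them with a single stop, and 103 stops were followed by another stop at the next nucleotide. The longest region spanned 26 nt. A single stop was found in 129 genes, 2 in 56 and 3 or more in 43 genes, and 16 genes had more than 1 region. The most stops, 7 each, were in NUCKS1, a chromatin-bound nuclear phosphoprotein, and MCRIP1, a regulator of the CtBP corepressor. In NUCKS1 the 7 stops were consecutive, 46 to 52 nt before the start codon, within 1 long run of G. In MCRIP1 they lay 38 to 55 nt before the start codon, 3 in exon 1 and 4 in exon 2.

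The stop was usually at the very end of a G run. Of the 403 stops, 252 (62.5%) were at the last G of a run of at least 2, against 30.5% of the 4113 listed G in the same 5′ UTRs. The nucleotide after the stop was A in 27.8%, C in 22.3%, G in 37.0% and U in 12.9%, and these shares were 25.7%, 20.0%, 39.8% and 14.6% for the listed G. Up to and including the stop, the run of G was 3 nt long at 193 stops, 2 nt at 126, 4 nt at 45 and longer at 32. G made up a median of 55.6% of the 45 nt (range 35.6 to 73.3%), with a median of 7 separate runs. The classical rG4 motif, with runs of 3 or more G joined by loops of 7 nt or less, was present at 91 stops (22.6%), and 312 stops had only the motif with runs of 2 G. The share with the classical motif was 10.8% among the coding stops and 36.3% among the 3′ UTR stops of the same rule. In the library that chose them, the 91 stops had a median E of 19.8 and the 312 a median of 16.4, with quartiles of 12.6 and 35.2 and of 12.3 and 27.3. The ranges of both groups overlapped nearly throughout.

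Along the 5′ UTR, stops sat nearer the cap than the listed G of the same 5′ UTRs as a whole, which include them. The distance to the cap, taken as the first nucleotide of the RefSeq transcript, had a median of 107 nt (quartiles 61 and 202.5 nt), whereas the 4113 listed G of the same 5′ UTRs had a median of 146 nt. The motif itself needs room, and no stop lay closer than 14 nt. Within 50 nt of the cap were 74 stops (18.4%), against 10.7% of the listed G, and within 100 nt 192 stops (47.6%), against 32.5%. The listed G are pooled, so long 5′ UTRs with many listed G weigh more in these values. Relative to the length of its 5′ UTR, position had a median of 57.1% for the stops and 63.7% for the listed G. The upper quartiles were 82.2% and 83.4%. Start sites used in these cells were not measured. The difference was smaller at the other end. The median distance to the start codon was 75 nt for the stops and 89 nt for the listed G, and 146 stops (36.2%) lay within 50 nt of the start codon, against 32.2%. The 5′ UTRs with a stop had a median length of 225 nt (n = 228), and all 2560 measured 5′ UTRs a median of 157 nt.

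**Figure D1:**
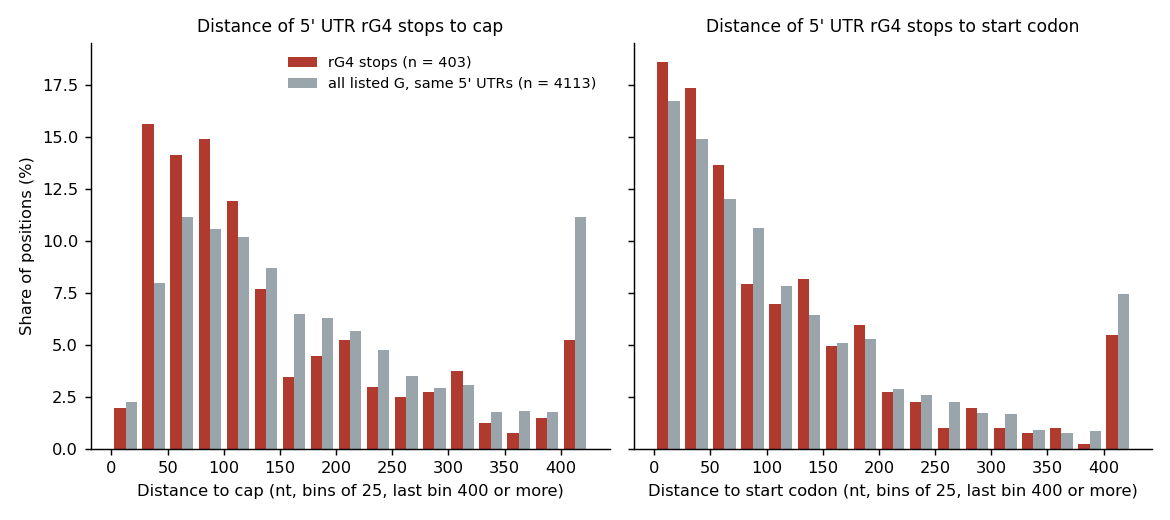
Share of positions (%) by distance to the cap (left) and to the start codon (right), in bins of 25 nt, for the 403 rG4 stops (red) and the 4113 G with listed stops in the same 5′ UTRs (grey). From 25 to 50 nt after the cap lay 15.6% of the stops and 8.00% of the listed G, while the distributions before the start codon ran close together.

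The extremes of position are shown because the cap and the start codon are where initiation factors and ribosomes bind. The stops nearest the cap were in FADS2, a fatty acid desaturase (14 nt), and MAFK, a small Maf transcription factor (16 nt). Their stretches reach back to the first nucleotide. HDGFL3, MANF, an endoplasmic reticulum stress protein, and PRPF31, a splicing factor, had the stop at the nucleotide right before the start codon. The stretch of PRPF31 crosses an exon junction and is not shown with the others.
FADS2 (chr11:61595713-61595727, plus strand): aGGGGGcgcGGtGGG
MAFK (chr7:1570368-1570384, plus strand): gcGGtGGcGGcGGGcGG
HDGFL3 (chr15:83876167-83876196, minus strand): caaGGactaccaGGaaGGGGagcGGctGGG
MANF (chr3:51422744-51422773, plus strand): aGGaGGaGGaGGaGGaGGaGGaGGaGGaGG
Without DMS, HDGFL3 had 92 counts and an E of 32.1 in the library labelled Na+, MANF 55 counts and 11.1, and FADS2 44 counts and 17.0, and none of the 3 was listed in the library labelled K+. With DMS, HDGFL3 had 4 counts in Li+, FADS2 4 in K+ and MANF 3 in K+ and 3 in starved cells, and MAFK was not listed in any DMS library. Of the 403 stops, 45 lay within 10 nt of the start codon, among them U2AF1 (3 nt) and PSMD4 (5 nt).

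The mean E around the stops was a narrow peak in the library of the rule. Over the 308 stops at least 60 nt from the cap, mean E was 26.8 at the stop, 8.99 at the nucleotide before and 12.1 at the nucleotide after, where neighbouring stops of the group are included. In the library labelled K+ it was 0.854 at the stop and 0.715 and 0.756 on either side. In vitro it was 2.42 in K+ and 1.45 in Li+. In vivo it was 0.211 in unstressed and 0.727 in starved cells. With unlisted stops at 0, a peak at the stop was thus also present in both in vitro libraries and in starved cells. Those libraries had no part in choosing the stops. The peak was not visible in unstressed cells, where mean E at the stop was below the 0.420 of the next nucleotide. The in vivo means rest on few stops, as 23.1% of the 308 were listed in starved and 8.12% in unstressed cells. AGPAT1 had 2 neighbouring stops with an E of 23.5 and 28.2 in starved cells, from 5 and 6 counts.

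**Figure D2:**
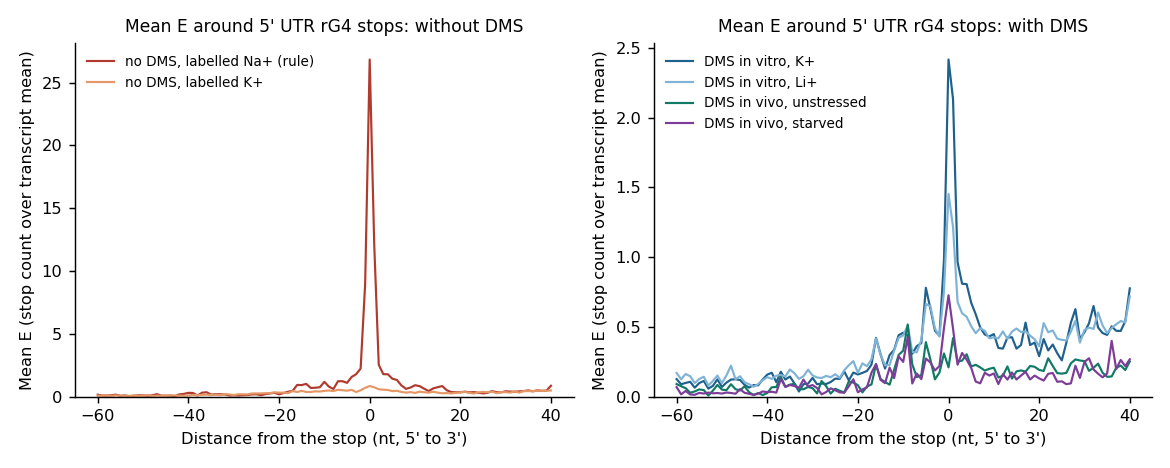
Mean E (stop count over transcript mean) by distance from the stop in nt for 308 rG4 stops, without DMS (left) and with DMS (right, another scale), 1 line per library. At distance 0 the lines reach 26.8 in the library labelled Na+, 2.42 in K+, 1.45 in Li+, 0.727 in starved and 0.211 in unstressed cells.

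In vitro, the stops were stronger in RNA folded in K+ than in Li+. This comparison asks which stretches fold only where the cation supports quartets. Of the 403 stops, 154 in 97 genes were listed in both libraries, 51 in K+ only, 48 in Li+ only and 150 in neither, and those in 1 library had at most 7 counts in K+ and 9 in Li+. Among the 154, the median log2 ratio of E in K+ over Li+ was 0.52 (quartiles 0.05 and 1.04), and 77.3% were above equality. At least 2-fold higher in K+ were 42 stops (27.3%, 95% Wilson interval 20.9 to 34.8%) in 37 genes, whereas this held for 11.2% of all nucleotides listed in both libraries, 11.4% of all such G and 10.7% of such G in 5′ UTRs. At least 2-fold higher in Li+ were 3 stops (1.95%), against 3.81% of all nucleotides, 3.04% of all G and 2.97% of G in 5′ UTRs. The median log2 ratio over all nucleotides was 0.18. With E relative to the mean over G and U, where that median was 0.35, the stops had a median of 0.63 and 53 (34.4%) were at least 2-fold higher in K+, against 18.4% of all nucleotides, 17.2% of all G and 15.0% of G in 5′ UTRs. In the other direction the share was again 1.95%, against 2.44%, 2.29% and 2.26%. Wilson intervals of shares treat the stops as independent, although neighbours share a stretch, and do not carry the read-counting error of each ratio. Intervals of ratios cover read-counting error only, and PCR copies are not independent molecules.

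The other sets of G put this in place. Strong stops at G in 5′ UTRs that differed by less than 2-fold between the libraries without DMS had a median log2 ratio of 0.16, with 8 of 127 (6.30%, interval 3.23 to 11.9%) at least 2-fold higher in K+. The remaining G of the 5′ UTRs that hold a stop had a median of 0.23, with 104 of 868 (12.0%). The rG4 stops of coding sequence and 3′ UTRs were close to those of 5′ UTRs, with medians of 0.48 and 0.52 and shares of 29.5% (interval 24.6 to 34.9%) and 26.8% (24.3 to 29.5%). Summed E is the summed counts of the stops over the summed transcript means at those stops, so well-covered transcripts weigh more. Over all 403 stops, listed or not, it was 1.52-fold higher in K+ (counting interval 1.42 to 1.63). The counts were 1636 in K+ and 1543 in Li+.

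Within the group, the classical motif went with the larger ratio. Of 43 stops with the classical motif 18 were at least 2-fold higher in K+ (41.9%, interval 28.4 to 56.7%), with a median log2 ratio of 0.89. Of 111 stops without the classical motif, 24 were (21.6%, interval 15.0 to 30.2%), with a median of 0.36. The intervals overlap slightly. By position, 11 of 28 stops within 50 nt of the cap (39.3%, interval 23.6 to 57.6%) and 31 of 126 farther away (24.6%, 17.9 to 32.8%) were at least 2-fold higher, and the intervals overlap. The shares within and beyond 50 nt of the start codon were 25.0% of 56 and 28.6% of 98.

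**Figure D3:**
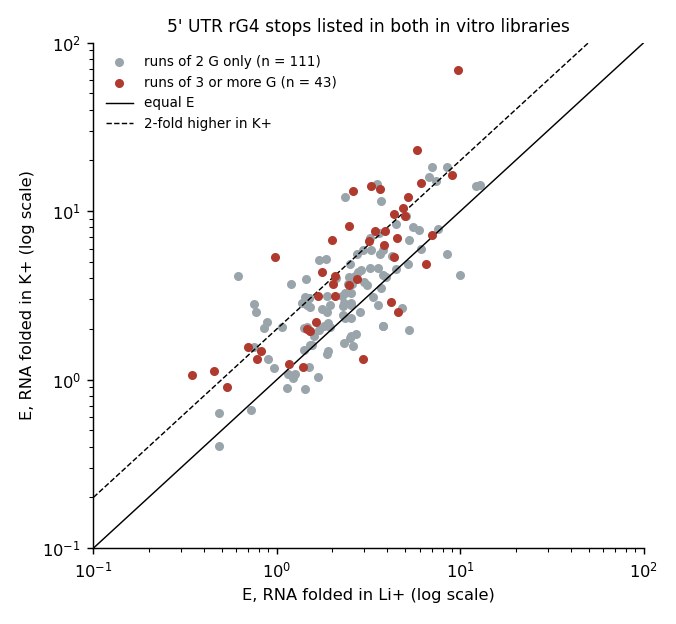
E of the 154 rG4 stops listed in both in vitro libraries, folded in Li+ (x axis) and K+ (y axis), both on log scales. The 43 stops with the classical motif are in red and the 111 without it in grey. The solid line is equality and the dashed line 2-fold, above or on which lie 42 stops.

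AGPAT1, which makes phosphatidic acid in the endoplasmic reticulum, had the highest E in the library of the rule and the largest ratio. Its stop, 110 nt from the cap and 225 nt before the start codon, had 539 counts in the library labelled Na+ and 8 in the library labelled K+. In vitro it had 60 counts in K+ and 12 in Li+, and in vivo it was not listed in unstressed cells and had 5 counts in starved ones. E was 68.9 in K+ and 9.70 in Li+, a ratio of 7.11 (counting interval 3.78 to 14.5). RPAP3, a cochaperone in RNA polymerase II assembly, had nearly the same strength without DMS and did not share that difference. Its counts were 285 and 4 without DMS, 9 in K+ and 13 in Li+, and none listed and 8 in vivo, with a ratio of K+ over Li+ of 1.12 (0.42 to 2.84).

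The other strong stops lay between them. BMP4, a secreted growth factor, had 498 and 4 counts without DMS, 29 in K+ and 15 in Li+, a ratio of 2.60 (1.35 to 5.22), and was not listed in vivo. PSMD4, a ubiquitin receptor of the proteasome, had 343 and 6 counts, 17 in K+ and 11 in Li+, and in vivo 4 (unstressed) and 11 (starved). Its ratio of K+ over Li+ was 2.15 with an interval of 0.95 to 5.09. U2AF1, which recognises the 3′ splice site, had the most counts, 1018 and 5 without DMS, 33 in K+ and 26 in Li+, and 4 and 11 in vivo. Its ratio was 1.88 (1.09 to 3.27), just under 2-fold. KIFC1, a minus-end-directed kinesin, had 18 counts in K+ and 13 in Li+ (2.07, 0.96 to 4.59), and NAA50, an N-terminal acetyltransferase, 10 and 11 (1.29, 0.49 to 3.34). PPIG, a nuclear cyclophilin, had 114 counts and none listed without DMS, 8 in K+ and 6 in Li+ (2.36, 0.72 to 8.24), and was not listed in vivo.

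Only 4 genes had a stop with 20 or more counts both in K+ and in Li+. Their ratios of K+ over Li+ were 1.88 in U2AF1, 1.34 in TCP1, a chaperonin subunit, 1.28 in PPP1R14B, an inhibitor of protein phosphatase 1, and 1.16 in NUCKS1. Only the interval for U2AF1 was above 1. A minimum of 20 counts in Li+ leaves out stops with large ratios, AGPAT1 among them. The largest ratios after AGPAT1 were in genes with few counts in Li+. H2AZ2, a histone variant, had 19 counts in K+ and 4 in Li+ (ratio 6.70, interval 2.23 to 27.1). CERS2, a ceramide synthase, had 12 and 3 (5.47, 1.48 to 30.2), and SEPTIN7, a cytoskeletal GTPase, 26 and 7 (5.10, 2.16 to 13.9). At the G just before it, another stop of SEPTIN7 had 4 and 8 (0.69, 0.15 to 2.56). CDC16, a subunit of the anaphase-promoting complex, had 16 and 5 (5.06, 1.77 to 17.7) and TEX261 18 and 6 (4.33, 1.65 to 13.3). Their stretches are shown to be compared with those of the strong stops.
H2AZ2 (chr7:44887608-44887637, minus strand): cGGcGGcGGcgcGGGtcGGcagcGGGaGGG
CERS2 (chr1:150947196-150947225, minus strand): GGcgcGGGccGGcGGGcGGGcGGaagaGGG
SEPTIN7 (chr7:35840789-35840818, plus strand): cgctGGGGctGGtcgcGGaGGGGGGGaGGG
CDC16 (chr13:115000382-115000411, plus strand): gcctGGGtGGGGGGtgcGGGtgtGGGtGGG
TEX261 (chr2:71221894-71221923, minus strand): gtcccGGtGGccGGGGagcGGGcGGGtGGG
Of these, CERS2, CDC16 and TEX261 have the classical motif within the 45 nt, and H2AZ2 and SEPTIN7 do not, SEPTIN7 having 4 runs of 3 or more G without loops within the limit. In all, the counting interval of the ratio lay above 1 at 16 of the 154 stops and below 1 at none.

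In vivo, few stops could be measured. Of the 403 stops, 30 (7.44%) were listed in unstressed and 90 (22.3%) in starved cells, 23 in both, 67 in starved cells only, 7 in unstressed cells only and 306 in neither. Of all nucleotides 26.8% were listed in unstressed and 36.2% in starved cells, of all G 15.8% and 32.5%, and of G in 5′ UTRs 12.1% and 22.7%. The remaining G of the 5′ UTRs that hold a stop were listed at 6.51% and 11.5%. The share of the stops in starved cells was thus near that of G in all 5′ UTRs and above that of the other G of their own 5′ UTRs. Of G in all 5′ UTRs, 6446 were listed in starved cells only and 1507 in unstressed cells only. None of the 4 DMS libraries listed 135 of the stops. The summed count was 146 in unstressed and 577 in starved cells. The median transcript mean over the 228 genes was 0.707 listed stops per nucleotide in unstressed and 0.715 in starved cells. An unlisted stop still allows up to 2 counts, which corresponds to an E of up to 3.10 in unstressed and 4.20 in starved cells at the median unlisted stop. The limit differs between transcripts, from 0.137 to 27.4 in unstressed and from 0.309 to 157 in starved cells, and a stop below the limit of its own transcript was not detectable at this depth. Rule stops in 3′ UTRs were listed more often, 41.0% in unstressed and 58.4% in starved cells, and those in coding sequence 17.9% and 27.1%. Stops within 50 nt of the start codon were listed in starved cells more often (31.5% of 146) than the others (17.1% of 257). In unstressed cells 12 of the 146 and 18 of the 257 were listed, which are similar shares. Within 50 nt of the cap 17.6% of 74 stops were listed in starved cells and farther away 23.4% of 329, and in unstressed cells 2.70% and 8.51%. Listed shares of all G by distance to the start codon or the cap were not calculated. Whether these differences belong to the stops or to coverage at their position was therefore not tested.

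For the 23 stops in 15 genes listed in both in vivo libraries, E was mostly higher in starved cells. By motif, the 4 stops with the classical motif had a median log2 ratio of -0.13 with none at least 2-fold higher. The 19 others had a median of 1.01 with 52.6% at least 2-fold higher. Over all 23 the median was 0.75 (quartiles -0.14 and 1.25), 16 of 23 were above equality and 10 (43.5%, interval 25.6 to 63.2%) were at least 2-fold higher in starved cells. This held for 11.9% of all nucleotides, 25.4% of all G and 17.9% of G in 5′ UTRs. No stop was at least 2-fold higher in unstressed cells, which held for 22.0% of all nucleotides, 8.4% of all G and 10.9% of G in 5′ UTRs. Strong G stops of 5′ UTRs under 2-fold between the libraries without DMS had a median of 0.52 and a share of 28.7% (25 of 87, interval 20.3 to 39.0%), and the intervals of the 2 shares overlap.

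The direction depended on what E is relative to. Stops at A or C are part of the transcript mean, and their share was 88.4% in unstressed and 78.2% in starved cells. With E relative to G and U only, the median log2 ratio of the 23 stops was -0.26, 3 (13.0%) were at least 2-fold higher in starved cells and 8 (34.8%) in unstressed cells. On that scale 2.81% of all nucleotides, 6.77% of all G and 3.71% of G in 5′ UTRs were at least 2-fold higher in starved cells, and 61.4%, 34.3% and 36.3% in unstressed cells. The change of scale moved the median log2 ratio of all nucleotides from -0.22 to -1.37 and that of G in 5′ UTRs from 0.19 to -0.63. The stops therefore lay above both medians on either scale, while the sign of their own median changed. Against the strong G stops under 2-fold no such distance remained relative to G and U, where these had a median of -0.30 and 19.5% at least 2-fold higher in unstressed cells. The part of the A and C stops in the difference was not tested.

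Taken over all 403 stops, listed or not, summed E was higher in starved cells on both scales when unlisted stops were taken as 0. Summed E, the summed counts over the summed transcript means, was 3.02-fold higher in starved cells (counting interval 2.52 to 3.65) relative to all bases. Relative to G and U it was 1.57-fold higher (1.31 to 1.89). The remaining G of the same 5′ UTRs were at 1.71 (1.62 to 1.80) and 0.895 (0.848 to 0.944), and the strong G stops under 2-fold at 1.58 and 0.953. The rG4 stops of coding sequence were at 2.26 and 1.30, and those of 3′ UTRs at 3.23 and 1.77. With 2 counts at every unlisted stop, the most it allows, the ratio for the 403 stops was 1.03 relative to all bases and 0.535 relative to G and U, so the size of the difference depends on the listing limit, and its direction relative to G and U does too. On the same assumption the ratio was 0.813 and 0.426 for the remaining G of the same 5′ UTRs, 1.52 and 0.919 for the strong G stops under 2-fold, 1.45 and 0.839 for the stops of coding sequence and 2.61 and 1.43 for those of 3′ UTRs. The 403 stops thus lay above the strong G stops under 2-fold with unlisted stops at 0 and below them with unlisted stops at 2, and above the remaining G in both cases.

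**Figure D4:**
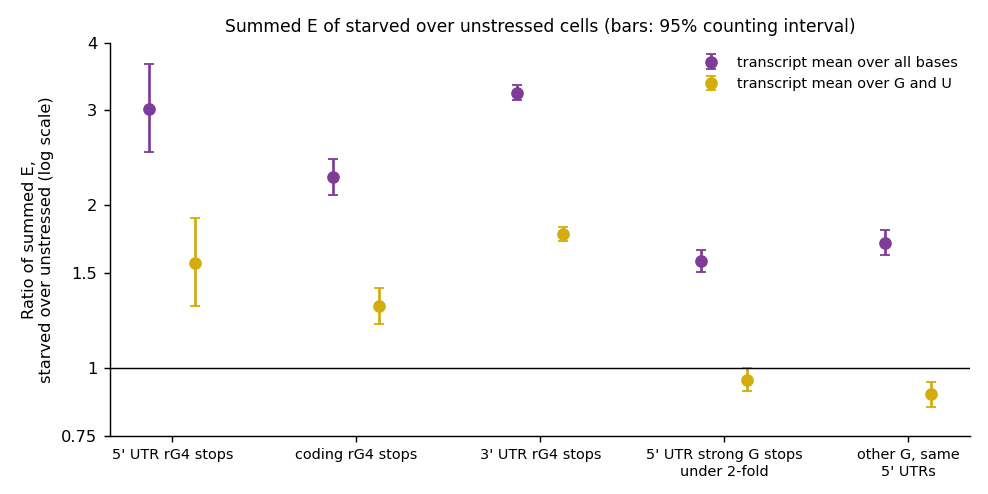
Ratio of summed E in starved over unstressed cells (log scale, line at 1), with E relative to all bases (purple) or to G and U (yellow), for 5 sets of positions. Summed E is the summed counts over the summed transcript means. Points are ratios and bars 95% counting intervals. The 403 stops of 5′ UTRs lie at 3.02 and 1.57, and the other G of the same 5′ UTRs at 1.71 and 0.895.

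Single stops were rarely resolved. Of the 23 ratios, which ran from 0.577 to 6.80, 2 had a counting interval above 1 and none below, and both were in PPP1R14B. The stop of PPP1R14B 185 nt before the start codon had 432 and 37 counts without DMS, 29 in K+ and 32 in Li+, and in vivo 12 (unstressed) and 30 (starved). Its E was 2.29 in unstressed and 8.04 in starved cells, a ratio of 3.50 (1.74 to 7.51), the largest among the 5 stops with at least 20 counts over both in vivo libraries. COX4I1, a subunit of cytochrome c oxidase, had 5 and 18 counts in vivo (2.22, 0.79 to 7.63), and CKS1B, a cyclin-dependent kinase subunit, 4 and 24 (2.22, 0.76 to 8.80).

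The ratio was close to 1 at the other 2 of these 5 stops. NUCKS1 had 9 counts in unstressed and 20 in starved cells, a ratio of 1.13 (0.49 to 2.81). NME1-NME2, a readthrough gene that shares sequence with NME1 and NME2 and is therefore uncertain, had 6 and 20 (1.04, 0.40 to 3.16). The ends of the range, named after their values were seen, were CLIC1 with 9 and 5 counts (0.577, interval 0.15 to 1.92) and FKBP8 with 3 and 3 (6.80, 0.91 to 50.8). The stretches of the best covered in vivo stops are shown because they carry the few ratios that can be read singly, with that of NUCKS1 taken at the last G of its run, 1 nt after the stop just given.
PPP1R14B (chr11:64014330-64014359, minus strand): GGGcGGGcGGatcGGcGGGGaGGGGGcGGG
NUCKS1 (chr1:205719147-205719176, minus strand): tGGGGcgccgagcgcgcGGGGtGGGGGGGG
COX4I1 (chr16:85833317-85833346, plus strand): acaccGGGtgtagaGGGcGGtcgcGGcGGG
The 7 neighbouring stops of NUCKS1 fall in the last run of its stretch.

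**Figure D5:**
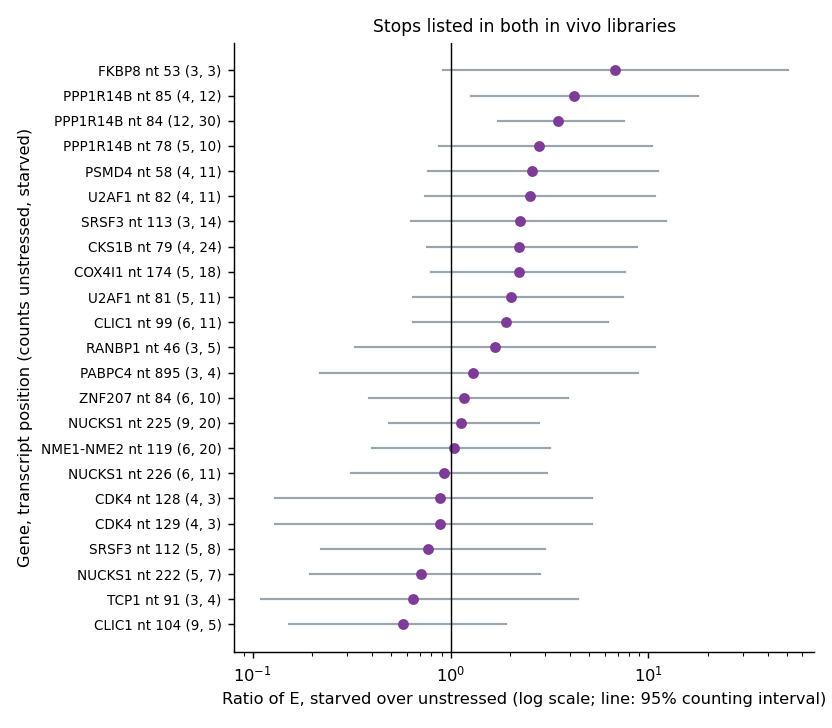
Ratio of E in starved over unstressed cells (log scale) for the 23 rG4 stops listed in both in vivo libraries, with the gene, the transcript position and the counts in unstressed and starved cells beside each. Points are ratios and lines 95% counting intervals. The lines of 2 stops, both in PPP1R14B, lie above 1.

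The in vivo folding score sets E in vivo on a scale where 0 is the E in Li+ and 1 the E in K+. It was calculated for the 42 stops in 37 genes at least 2-fold higher in K+ and listed in both in vitro libraries. Of these 42, 18 had the classical motif. In unstressed cells 3 of the 42 were listed and in starved cells 14, and 28 were listed in neither and so scored as 0 counts. The median score was -0.65 in unstressed and -0.45 in starved cells, and 13 stops had a higher and 1 a lower score in starved cells. Of the 13, 9 were also higher with 2 counts at the stops unlisted in unstressed cells. With 2 counts at unlisted stops the medians were -0.07 and 0.16. The median score of the group thus rests on the listing limit in both conditions. Only 9 of the 42 stops had at least 10 counts in both in vitro libraries.

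Where the stop was listed in starved cells, the score had a median of 0.09 and ranged from -0.69 to 6.82 (n = 14). AGPAT1 scored -0.16 in unstressed and 0.23 in starved cells at its strongest stop. The highest score was at the neighbouring G of AGPAT1, from 6 counts in starved cells against 6 in K+ and 4 in Li+. PSMD4 went from -0.30 to 0.61 (4 and 11 counts in vivo), H2AZ2 from -0.18 to 0.45 (none listed and 9) and RANBP1, a Ran-binding protein, at the stop 46 nt along the transcript from -0.19 to 0.00 (3 and 5). SEPTIN7, with 3 counts in starved cells, scored -0.14 there, and in unstressed cells, where it was not listed, between -0.24 at 0 counts and -0.03 at 2 counts, so that its direction was not determined. CDK4, a cell cycle kinase, was the 1 stop with the lower score in starved cells, -0.04 and -0.09 from 4 and 3 counts. At the upstream of the 2 scored stops of RRM1, the large subunit of ribonucleotide reductase, the score was -0.47 in starved cells from 6 counts, and between -0.89 and -0.41 in unstressed cells, where it was not listed, which again leaves no direction. In starved cells 10 stops scored above 0. In unstressed cells an unlisted stop taken as 0 counts is below 0 by construction, and with 2 counts at unlisted stops 14 of the 42 scored above 0 there and 28 in starved cells.

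Genes with a stop were 228 of the 2560 measured (8.91%), against which the gene lists are read. Of 7 measured mRNAs on a list of those reported to carry 5′ UTR rG4s, 3 held a stop, namely TGFB2, a growth factor, ADAM10, a membrane protease, and YY1, a zinc finger transcription factor, while NRAS, CCND3, CTSB and MYC did not. Of 4 measured mRNAs on a list sensitive to loss of eIF4A activity, BRD2, a chromatin reader, and ARF6, a small GTPase, held a stop, and MYC and CCND1 did not. The stress mRNAs with upstream reading frames ATF4 and EPRS1 held none. The stretches of these known mRNAs are shown for comparison with published elements.
TGFB2 (chr1:218518971-218519000, plus strand): agaagccagcagaGGttGGGaaaGGGtGGG
ADAM10 (chr15:59041932-59041961, minus strand): gaGGaaGGaaacgaacgaGGGGGaGGGaGG
YY1 (chr14:100705235-100705264, plus strand): gaaGGaGGcGGaGGcgcaGGaGGaaGGGGG
ARF6 (chr14:50359818-50359847, plus strand): gaactGGGaGGaGGagttGGaGGccGGaGG
The strongest of them was TGFB2, with 142 and 6 counts without DMS (E of 83.1 and 3.20), 3 in K+, 4 in Li+ and none listed in vivo. ADAM10 had 21 counts (E of 16.4), YY1 21 (E of 10.6) and ARF6 30 (E of 24.1), and none of these 3 was listed in the library labelled K+. The 4 stops of BRD2 had 19 to 72 counts and were not listed in any other library. None of these stops was listed in vivo.

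By gene family, stops were found in none of 51 mRNAs of large and 33 of small ribosomal subunit proteins. Of 21 measured genes with symbols starting with PPP, which include regulators of phosphatases, 6 (28.6%) held a stop, PPP1CA, PPP1CC, PPP1R11, PPP1R14B, PPP2CB and PPP2R5C. The members of families are named after their values were seen. Among small families the shares varied widely, with 2 of 8 (25.0%) for ZNF, 1 of 5 (20.0%) for DHX and none of 10 for RBM and of 3 for TRIM. Stops were also found in 2 of 36 for EIF (EIF2S2 and EIF4EBP1), 2 of 40 for proteasome subunits (PSMD4 and PSME3), 3 of 24 for SLC (SLC25A10, SLC25A17 and SLC39A7), 2 of 16 for HNRNP (HNRNPA0 and HNRNPR) and 2 of 25 for TMEM. PPP1CA, the catalytic subunit of protein phosphatase 1, had 180 counts in the library labelled Na+ and was not listed in the library labelled K+, with 13 in K+ and 6 in Li+ (3.08, 1.09 to 9.89) and none listed in vivo.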

How the data were processed

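The authors removed duplicate reads and aligned the rest uniquely with Bowtie to hg19 transcripts. The deposited files list nucleotides with 3 or more RT stops, with the stop counts and their ratio to a mean count, which in the files is that of the same base. Unlisted nucleotides were taken as 0. The deposited counts were used for E, and the deposited ratio only for an alternative mean. The bases listed for a RefSeq transcript were aligned to GENCODE 44 models on GRCh37 (97% identity over 80% of them or more), which placed 2621 of the 2723 transcripts past the minimum. Transcript starts upstream of the annotation were read from the genome, which concerned 68 of the 403 stops. Members and gene lists were chosen with earlier results of these data known. Named were the 8 strongest stops, those with enough counts in the DMS libraries for a ratio, stops with a folding score, the extremes of position (1 of them is not reported here), the listed genes, the 2 genes with most stops and the stops at each limit. Intervals of ratios are exact binomial counting intervals (95%). Totals per library give the depth. The calculation was tested on simulated counts. The planted stops lay well above the limits and on transcripts with more coverage than the rule requires, so members near a limit were not tested. Alternatives changed the limits, the mean, the motif and the treatment of unlisted stops. Software was pysam 0.24.0, matplotlib 3.10.9, scipy 1.17.1, pandas 2.3.3, numpy 2.4.6 and Python 3.11.15.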

Additional observations from a re-analysis of the deposited data

How the results depend on the processing

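The number of stops was 786 with an E of at least 5, 158 with at least 20 and 184 with a transcript mean of at least 2. It was 91 with the classical motif, 245 after merging and 4 with the library labelled K+ as the stronger. The median distance to the cap was 95.5 nt with a transcript mean of at least 2. That to the start codon was 102 nt with the classical motif. For K+ over Li+, the classical motif gave a median log2 ratio of 0.89 and 41.9% at least 2-fold higher. A mean rebuilt from the deposited ratio gave 19.4% at least 2-fold higher. For starved over unstressed cells, the median log2 ratio was -0.13 with the classical motif (4 stops, 0% at least 2-fold higher). It was -0.26 with the mean over G and U (13.0%) and 1.81 at the 1 stop with at least 10 counts (100%). The log2 ratio of summed E, chosen after seeing the data, was 1.60. With 2 counts at unlisted stops the median folding scores were -0.069 in unstressed and 0.16 in starved cells, and with at least 10 in vitro counts that in unstressed cells was -0.81. Of 78 alternative values, 57 stayed within the counting or order-statistic interval of the value reported or within 1.5-fold of its count. Apart from the construction of each alternative, the cause of these shifts was not tested. No paired analysis was possible because each condition had 1 library and the labels give no shared replicates. Of the 403 stops, 306 had fewer than 3 counts in both in vivo libraries and could not be compared singly.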

Other observations

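In 5′ UTRs, 24 stops at G in 18 genes had the strength and the difference of the rule but not the motif, and 5 of them lay so near the cap that fewer than 45 nt precede them. The strongest, named after its value was seen, was in SEPHS1, selenophosphate synthetase, 12 nt before the start codon, with 168 counts in the library labelled Na+ (E of 113.8), none listed in the library labelled K+, 10 in K+ and none listed in Li+ or in vivo. DHX15, an RNA helicase, had 169 counts (E of 41.4) and 12 in K+ and 11 in Li+, at a stop 77 nt from the cap. DHX15 also holds a stop of the group, 79 nt from the cap (E of 15.9). The windows of the SEPHS1 and DHX15 stops without the motif held 5 or 6 runs of G, with loops outside the limit of the rule.

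In the opposite direction, 12 stops at G in 9 genes were strong in the library labelled K+ (E of 10 or more) and 2-fold or more above the library labelled Na+. Of these 4 had the motif, in RAB5IF, VPS4A, TWF2 and JUN, with 11 to 14 counts in the library labelled K+ and 5 to 6 in the library labelled Na+. Of the 12, 7 were listed in both in vitro libraries, and 0 of these 7 were at least 2-fold higher in K+ than in Li+.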
